A study of Mus musculus with 2 samples.

Results

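Expression of 10 genes for stress-responsive transcription factors, 4 of the C/EBP family and 6 of the KLF family, was followed in primary mouse neonatal ventricular cardiomyocytes (mNVCM). The genes were *Cebpa*, *Cebpb*, *Cebpd*, *Cebpg*, *Klf2*, *Klf4*, *Klf6*, *Klf9*, *Klf10* and *Klf15*, and a probe set was taken when the annotation of the array named exactly 1 gene for it and that gene was one of them. All 10 were measured, by 25 of the 34945 probe sets with 1 gene, among 18193 genes in all. The mNVCM came from C57BL6/J mice at postnatal day 2, were cultured for 48 up to 72 h in serum-containing medium, and spent 1 h in medium with 0.5% FBS. The hAFS-CM + Dox cells were then pre-incubated for 3 h with hAFS-CM, the medium that human amniotic fluid stem cells had conditioned, and exposed to 1 μM doxorubicin (Dox), whereas the Dox cells received 1 μM Dox without that medium. According to the paper's methods the medium came from hypoxic hAFS of pooled donors. No cells without Dox were on an array, so both conditions share the exposure to Dox. The labels give 6 h of Dox for hAFS-CM + Dox and 21 h for Dox, so a longer exposure and the missing pre-incubation cannot be told apart in the differences below. The methods of the paper name a single exposure time for both conditions, and which of the sources holds is not known. There was 1 Affymetrix array per condition, hence no standard error, test or p-value. Every value describes these 2 arrays only, and having so few is what bounds its precision.

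The C/EBP proteins (CCAAT/enhancer-binding proteins) are basic leucine zipper factors that bind DNA as pairs. *Cebpb* and *Cebpd* are the members induced by inflammatory cytokines, with IL-6 acting on *Cebpd* through STAT3, and their proteins switch on acute-phase and cytokine genes, *Il6* among them. *Cebpa* is best known from liver, fat and myeloid cells, where it goes with differentiation and exit from the cell cycle, and *Cebpg*, which has a zipper but little activating domain of its own, pairs with the other members and with ATF4 in the amino acid stress response. The KLF proteins (Krüppel-like factors) bind GC-rich and CACCC sequences through zinc fingers at their C-terminus. *Klf2* and *Klf4* keep endothelium quiescent and respond to blood flow, *Klf6* and *Klf10* are early genes of injury and TGF-β, *Klf9* responds to glucocorticoids and thyroid hormone, and *Klf15* restrains hypertrophy and drives fatty acid and amino acid use in the heart.

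None of the 10 genes differed by 2-fold, the threshold of the study's methods, at its brightest probe set, the one with the highest average over both arrays. Over all genes, 0.506% were higher and 0.214% were lower on the hAFS-CM + Dox array by 2-fold or more. The furthest from 0 was *Cebpd*, which was 1.75-fold higher with hAFS-CM + Dox and the only one of the 10 past 1.5-fold, beside 2.32% of all genes higher and 1.52% lower by 1.5-fold. *Cebpa* came next, 1.39-fold higher. The 6 KLF genes lay within a narrow band, with log2 ratios (hAFS-CM + Dox over Dox) from -0.24 for *Klf15* to 0.21 for *Klf10*. The median log2 ratio was 0.27 over the C/EBP genes and -0.04 over the KLF genes, beside 0.01 over all genes. Over all 8 probe sets of the C/EBP genes the median was -0.01, with 4 above and 4 below 0, so the C/EBP median depends on taking the brightest probe set. Where a gene had 2 or more probe sets at or above the median of all values, 5.10, their log2 ratios differed with a standard deviation of 0.20 (5166 genes), called the probe-set SD below. Read against it, although it holds no variation between cultures, 3 of the 10 genes were higher (*Cebpa*, *Cebpd* and *Klf10*), 2 were lower (*Cebpg* and *Klf15*) and 5 lay within it. Of all genes, 18.5% were higher and 16.3% lower by that SD, and with 10 genes the counts of 3 and 2 lie near these shares.

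**Figure D1:**
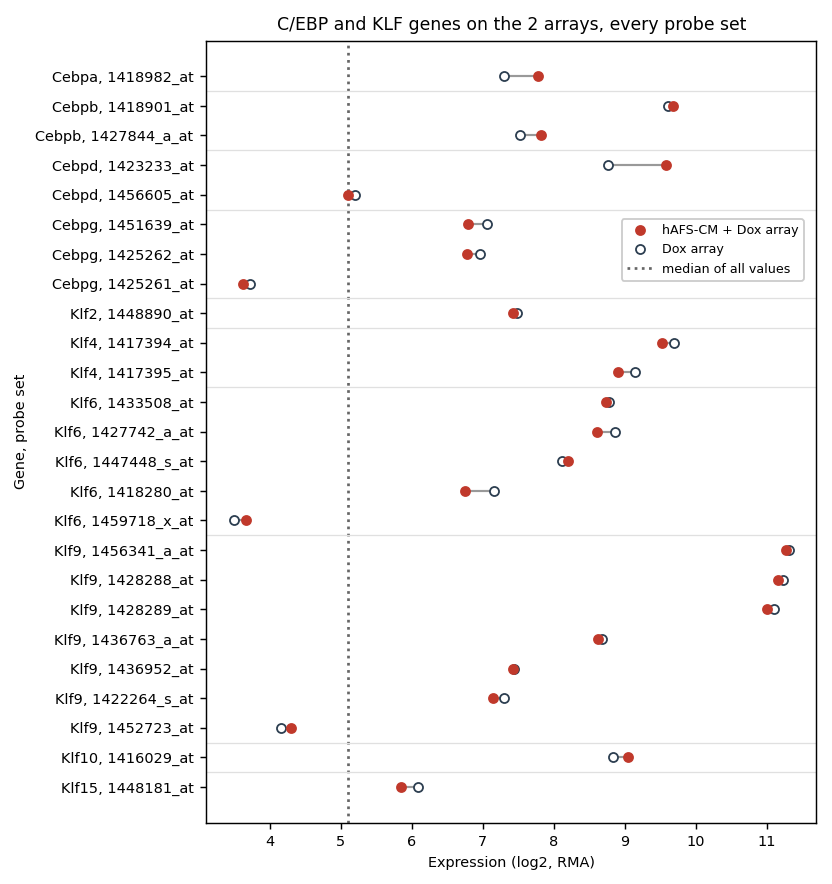
Log2 expression (RMA) of the 10 genes at each of their 25 probe sets, with 1 array per condition, hAFS-CM + Dox (filled red points) and Dox (open points), joined by a grey line. A dotted line marks the median of all values, 5.10. The longest line belongs to the first probe set of *Cebpd*, 9.57 with hAFS-CM + Dox and 8.76 with Dox. Levels of different probe sets are not comparable.

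*Cebpd*, which codes for C/EBPδ, the acute-phase member of the family, had a log2 value of 9.57 with hAFS-CM + Dox and 8.76 with Dox at its brightest probe set. This log2 ratio of 0.81 ranked 171 from the highest among all genes, and 0.940% of genes were at least as high. The gene has another probe set, which read 5.10 with hAFS-CM + Dox and 5.20 with Dox, a log2 ratio of -0.10. The difference was therefore seen at only 1 of the 2 probe sets of *Cebpd*, the other lying at about the median of all values on both arrays, and their mean log2 ratio was 0.35.

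*Cebpa*, which codes for C/EBPα, read 7.77 with hAFS-CM + Dox and 7.30 with Dox at its single probe set. Its log2 ratio of 0.48 was reached or passed by 3.95% of genes. *Cebpg*, the partner of ATF4, had log2 values of 6.79 with hAFS-CM + Dox and 7.06 with Dox at the brightest probe set, a log2 ratio of -0.27. Its second probe set gave -0.19 (6.78 with hAFS-CM + Dox and 6.97 with Dox) and the third -0.09, from values of 3.63 with hAFS-CM + Dox and 3.72 with Dox that lie below the 25th percentile of all values (3.80). All 3 probe sets of *Cebpg* were thus lower with hAFS-CM + Dox, 1 of them by more than the probe-set SD. *Cebpa* and *Cebpg* are near neighbours on chromosome 7, with 1 long non-coding RNA gene between them in the RefSeq annotation of GRCm38.p6, and their log2 ratios had opposite signs. *Cebpb*, which codes for C/EBPβ, had a log2 ratio of 0.07 at the brightest probe set (9.68 with hAFS-CM + Dox and 9.61 with Dox) and of 0.29 at the other (7.82 with hAFS-CM + Dox and 7.53 with Dox). Both probe sets were higher with hAFS-CM + Dox, the second by more than the probe-set SD. Of 9 markers of macrophages and other leukocytes, cells that express *Cebpa*, *Cebpb* and *Cebpd* strongly, 5 were higher and 1 was lower by that SD with hAFS-CM + Dox. Of all genes, 18.5% were higher and 16.3% lower by it. The part of leukocytes in the values of these 3 genes was not tested.

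RefSeq promoters on GRCm38.p6 were given for 8 of the 10 genes, all but *Cebpd* and *Klf10*, and the 250 bases before the annotated start were searched on both strands for 8 short motifs. These were TTCNNNGAA (STAT factors), GGGA, any base and TTTCC (NF-κB), TGANTCA (AP-1), TTGCNNAA (C/EBP), GNACA, 3 bases of any kind and TGTNC (the glucocorticoid receptor), TGACG (the half-site of CREB and ATF factors), CACGTG (the E-box of USF and clock factors) and CCAAT (NF-Y). The windows of *Cebpa*, *Cebpg* and *Cebpb* are shown 5′ to 3′ along the gene, with motif matches in capitals, because *Cebpa* and *Cebpg* differed in sign and *Cebpb* holds several half-sites of CREB and ATF factors.
Cebpa, chr7:35119043-35119292, plus strand: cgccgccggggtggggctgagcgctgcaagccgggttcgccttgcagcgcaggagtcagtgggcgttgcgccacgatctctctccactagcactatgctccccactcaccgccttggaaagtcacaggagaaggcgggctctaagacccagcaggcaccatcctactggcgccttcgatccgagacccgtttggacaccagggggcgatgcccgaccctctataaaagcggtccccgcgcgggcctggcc
Cebpg, chr7:35056567-35056816, minus strand: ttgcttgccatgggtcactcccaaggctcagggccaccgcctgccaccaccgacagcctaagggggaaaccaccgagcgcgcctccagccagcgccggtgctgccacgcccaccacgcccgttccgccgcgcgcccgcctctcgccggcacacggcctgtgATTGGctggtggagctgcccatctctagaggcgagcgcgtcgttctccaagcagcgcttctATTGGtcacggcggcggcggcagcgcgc
Cebpb, chr2:167688665-167688914, plus strand: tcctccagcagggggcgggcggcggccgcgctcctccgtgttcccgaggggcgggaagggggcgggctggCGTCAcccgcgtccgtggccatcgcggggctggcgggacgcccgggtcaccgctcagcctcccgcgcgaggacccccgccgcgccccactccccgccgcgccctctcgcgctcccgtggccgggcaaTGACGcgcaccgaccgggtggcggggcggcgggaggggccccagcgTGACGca
The window of *Cebpa* held none of the 8 motifs, that of *Cebpg* held CCAAT at 2 places, and that of *Cebpb* held TGACG at 3, the nearest starting 7 bases before the start. TGACG was found in 5 of the 8 windows of these genes (*Cebpb*, *Klf2*, *Klf4*, *Klf9* and *Klf15*), beside 17.8% of 32851 windows of all genes. CCAAT was found in 4 (*Cebpg*, *Klf6*, *Klf9* and *Klf15*), beside 33.8%, and CACGTG in 3 (*Klf4*, *Klf6* and *Klf15*), beside 6.02%. None held the NF-κB, C/EBP or glucocorticoid receptor letters, which 0.356%, 9.56% and 0.387% of all windows held. The windows of these genes were richer in G and C, from 59.6% in *Klf9* to 81.6% in *Cebpb* beside a median of 52.4%, which bears on how often any motif is met. A match describes letters, and binding was not measured.

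**Figure D2:**
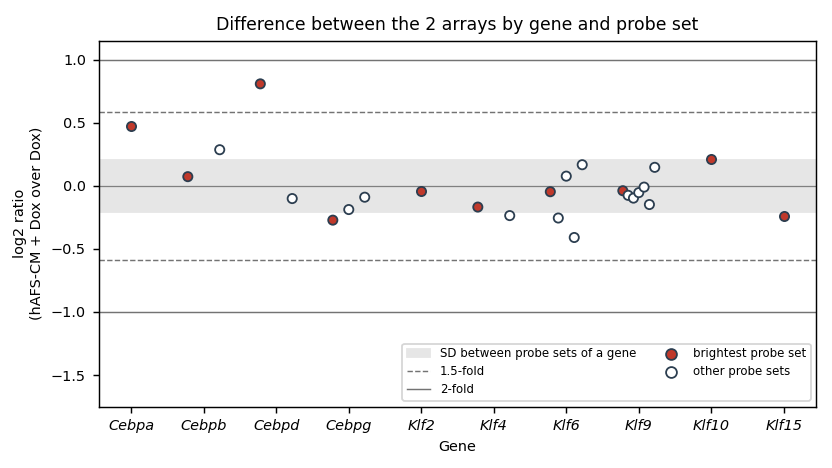
Log2 ratio (hAFS-CM + Dox over Dox) of each probe set of the 10 genes, by gene. Red points are the brightest probe set and open points the others; the grey band is the probe-set SD, 0.20, and lines mark 1.5-fold and 2-fold. *Cebpd* has 1 point above 1.5-fold, at 0.81, and no point reaches 2-fold.

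Among the KLF genes, *Klf10*, known as TGF-β-inducible early gene, had the highest log2 ratio. It read 9.05 with hAFS-CM + Dox and 8.84 with Dox at its single probe set, a log2 ratio of 0.21, which 17.8% of genes reached or passed. *Klf15*, the metabolic regulator of heart muscle, read 5.84 with hAFS-CM + Dox and 6.08 with Dox at its single probe set, a log2 ratio of -0.24. As many as 12.8% of genes were at least as low as *Klf15*, so that both ends of the KLF range lay among many other genes. *Klf2*, the flow-responsive factor of endothelium, differed by -0.04 (7.43 with hAFS-CM + Dox and 7.47 with Dox).

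*Klf4*, which shares endothelial roles with *Klf2* and slows growth in many epithelia, had a log2 ratio of -0.17 at one probe set (9.53 with hAFS-CM + Dox and 9.70 with Dox). Its other probe set gave -0.24 (8.91 with hAFS-CM + Dox and 9.14 with Dox). The probe sets of *Klf4* thus had the same sign and nearly the same size of difference. *Klf6*, an early gene of tissue injury, had 5 probe sets that did not share a sign. The probe set of highest mean gave -0.05 (8.73 with hAFS-CM + Dox and 8.78 with Dox), while another gave -0.41 (6.75 with hAFS-CM + Dox and 7.16 with Dox). The others had both signs, with -0.26, 0.08 and 0.17, the last from values of 3.66 with hAFS-CM + Dox and 3.49 with Dox below the 25th percentile. *Klf6* was thus lower by more than the SD at 2 probe sets and within it at 3, and no single value stands for the gene.

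*Klf9*, a glucocorticoid-responsive repressor, was the best covered of the 10 genes, with 7 probe sets. Their log2 ratios ran from -0.15 to 0.15, and all 7 lay within the probe-set SD. At the brightest probe set *Klf9* read 11.27 with hAFS-CM + Dox and 11.31 with Dox, a log2 ratio of -0.04. The single positive value, 0.15, came from the dimmest probe set, whose values of 4.30 with hAFS-CM + Dox and 4.15 with Dox lie below the median of all values. The window upstream of *Klf9* is shown because it was the only one of the 8 with the STAT and AP-1 letters, which 7.02% and 6.75% of all windows held, with all motif matches in capitals.
Klf9, chr19:23140976-23141225, plus strand: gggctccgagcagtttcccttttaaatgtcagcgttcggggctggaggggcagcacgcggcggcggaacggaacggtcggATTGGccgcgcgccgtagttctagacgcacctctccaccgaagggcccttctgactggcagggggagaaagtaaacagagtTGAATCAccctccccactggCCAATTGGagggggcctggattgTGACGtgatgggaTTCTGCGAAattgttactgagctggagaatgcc
TTCTGCGAA starts 33 bases and TGAATCA 89 bases before the annotated start of *Klf9*, and TGACG 46 bases before it. CCAAT was met at 3 places on either strand, of which a pair overlaps. The letters are given beside a gene whose level was nearly equal on both arrays.

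Of the 6 genes with several probe sets, 3 had the same sign at all of them (*Cebpb*, *Cebpg* and *Klf4*) and 3 had both signs (*Cebpd*, *Klf6* and *Klf9*). The other 4 genes rest on a single probe set, and for these no check within the array exists. Over the 25 probe sets, 8 had a log2 ratio above 0 and 17 below, against 50.5% above 0 over all probe sets with 1 gene. Of the 17 KLF probe sets, 13 were below 0, of which 4 by more than the probe-set SD. Over all probe sets with 1 gene, 18.2% were higher and 17.1% lower by that SD, 3.92% differed by 1.5-fold in either direction and 0.681% by 2-fold. Probe sets of one gene share its transcripts and are not replicates.

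**Figure D3:**
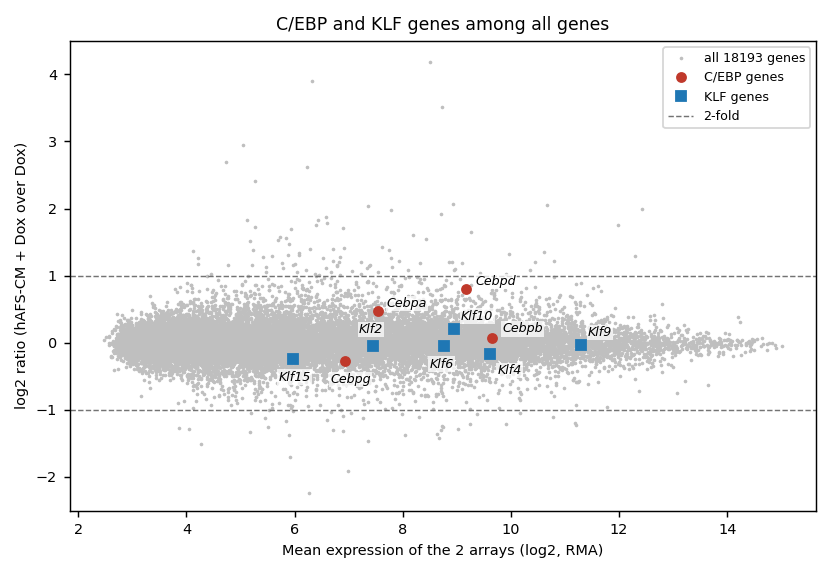
Log2 ratio (hAFS-CM + Dox over Dox) of each of 18193 genes against the mean log2 expression of the 2 arrays (grey points), with C/EBP genes as red circles and KLF genes as blue squares, at the brightest probe set; dashed lines mark 2-fold. All 10 genes lie between the dashed lines, with *Cebpd* the highest at 0.81 and *Cebpg* the lowest at -0.27.

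The rest of the families also stayed under 2-fold at the brightest probe sets. Of 16 measured KLF genes, the 6 above included, 7 had a log2 ratio above 0 and 9 below, none passed 1.5-fold, and 10 lay within the probe-set SD. Of all 18193 genes, 17494 lay within 1.5-fold and 11869 within that SD. *Klf16* was the highest at 0.34 (7.28 with hAFS-CM + Dox and 6.94 with Dox). *Klf17*, an early embryonic factor, was the lowest at -0.31, from values of 3.65 with hAFS-CM + Dox and 3.95 with Dox below the median of all values, and it had 0.31 at another probe set. *Klf5*, which acts in cardiac and vascular remodelling, had 0.15 with -0.13 at another probe set, *Klf13*, a partner of GATA4 in the heart, 0.11 with -0.35 at another probe set, and *Klf3*, a repressor, -0.16 (-0.35 to 0.03 over 7 probe sets). *Klf12* had -0.21 at its brightest probe set, but the other 4 of its 5 probe sets were above 0 (up to 0.15) and the mean over all 5 was 0.02. *Klf1*, the erythroid factor, had 0.22, *Klf11*, a TGF-β-inducible relative of *Klf10*, -0.17, *Klf14* 0.11 and *Klf7* 0.03, with 0.53 at another probe set of *Klf7*. Of the other C/EBP genes, *Ddit3* (CHOP), the C/EBP homologue of endoplasmic reticulum stress, read 8.28 with hAFS-CM + Dox and 8.35 with Dox, a log2 ratio of -0.07. *Cebpe*, *Cebpz* and *Klf8* had no probe set of their own in the annotation used and were not analysed here.

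Among genes that C/EBPβ and C/EBPδ are known to switch on in inflammation, several differed by 2-fold. Of 14 measured, 7 were higher by 2-fold or more with hAFS-CM + Dox and none was lower by 2-fold, with a median log2 ratio of 0.99. The shares over all genes were 0.506% higher and 0.214% lower by 2-fold. *Il6* read 7.55 with hAFS-CM + Dox and 4.92 with Dox, a log2 ratio of 2.62. *Serpina3n*, an acute-phase protease inhibitor, had 1.97, *Hp*, which codes for haptoglobin, 1.31 (6.73 with hAFS-CM + Dox and 5.42 with Dox), and *Ptgs2*, the inducible cyclooxygenase, 1.21. The other 3 past 2-fold were *Ccl2*, *Lcn2* and *Socs3*. They were not met alike, since *Saa3*, a serum amyloid and a classical target of C/EBP, read 11.08 with hAFS-CM + Dox and 11.18 with Dox, a log2 ratio of -0.10, and *Tnf* had 0.14. The study chose *Il6* on these arrays, and this list was drawn up with results of these arrays known, so its count is not independent evidence of a direction. NF-κB and STAT3 act on many of the same genes, and their part was not separated from that of C/EBP.

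Receptors and factors that induce the C/EBP and KLF genes were read as well. Of 14, 1 was higher by 2-fold and none was lower by 2-fold, beside 0.506% and 0.214% of all genes, with a median of 0.27. By the probe-set SD, 8 were higher and 2 lower, beside 18.5% and 16.3% of all genes. *Osmr*, which codes for the receptor of oncostatin M, had 1.66 (10.09 with hAFS-CM + Dox and 8.43 with Dox), although 1 of its 3 probe sets gave -0.04. *Il6st*, the signalling chain gp130 that IL-6 and oncostatin M share, had 0.55, and all 4 of its probe sets were higher. *Stat3*, which acts on *Cebpd*, read 10.52 with hAFS-CM + Dox and 10.16 with Dox, a log2 ratio of 0.35, and was higher at all 4 probe sets. *Tgfbr2*, the TGF-β receptor upstream of *Klf10*, had 0.33 (-0.18 at 1 of its 3 probe sets). *Creb1*, counted as higher at 0.30, was lower at 4 of its 6 probe sets. The 2 lower genes were *Mef2a* (-0.26, and down to -0.69 over 6 probe sets, all lower) and *Il6ra* (-0.23, with 0.11 at its other probe set). *Mef2c* had -0.02 and was lower at all 5 probe sets, down to -0.68.

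The ATF4 response, in which C/EBPγ takes part, gave mostly small negative values. Of 11 genes, none passed 2-fold, 2 were higher and 3 lower by the probe-set SD, and the median was -0.16. Over all genes, 18.5% were higher and 16.3% lower by that SD, and the counts of 2 and 3 lie near these shares. *Slc7a11*, the cystine transporter, had 0.69 (5.12 with hAFS-CM + Dox and 4.43 with Dox) and *Nupr1*, a stress-induced nuclear protein, 0.63, while *Sesn2* had -0.30 (0.12 at its other probe set) and *Vegfa* -0.26. *Atf4* itself read 9.52 with hAFS-CM + Dox and 9.68 with Dox, a log2 ratio of -0.16, and *Asns*, the asparagine synthetase that ATF4 induces, had -0.19. *Trib2*, a pseudokinase that directs C/EBPα to degradation, read 8.27 with hAFS-CM + Dox and 9.03 with Dox, a log2 ratio of -0.76, and its 3 probe sets were all lower. Without its probe sets of less specific types (marked _s_at and _x_at by Affymetrix) *Trib2* had -0.02. Of the 6 measured regulators of C/EBP proteins, *Trib2* was the only one past 1.5-fold, as *Rps6ka3* had 0.21, *Trib1* -0.07 (0.34 at its other probe set) and *Cop1* 0.06. Among adipogenic genes, none of 6 passed 2-fold, with *Fabp4*, a fatty acid carrier of fat, macrophages and capillaries, at -0.53 (-1.21 to 0.05 over 4 probe sets) and *Lpl* at 0.05.

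Lists linked to the KLF genes were mixed. Of 13 endothelial targets of KLF2 and KLF4, 3 were higher by 2-fold and none was lower by 2-fold, with a median of 0.27. Of all genes, 0.506% were higher and 0.214% lower by 2-fold. *Selp*, which codes for P-selectin, had 4.18 at its brightest probe set (10.59 with hAFS-CM + Dox and 6.41 with Dox), and its 3 probe sets ran from 1.64 to 4.18 with a mean of 2.65. *Angpt2* had 1.07, but a second probe set gave -0.05. *Sele*, counted as the third, read 4.85 with hAFS-CM + Dox and 3.59 with Dox, both below the median of all values and the Dox value below the 25th percentile, so the size of its difference is not given. *Ackr3*, a chemokine scavenger, had 0.97. *Vcam1* had 0.76 at its brightest probe set, with 0.03 at the lowest of 3 and a mean of 0.44. KLF2 and KLF4 are known to hold *Sele* and *Vcam1* down and to keep *Nos3* and *Thbd* up. The list thus joins both directions, and its count and median do not measure KLF2 or KLF4 action. *Nos3* had 0.13 and *Thbd* 0.14.

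Of 14 metabolic and cardiac targets of KLF15, none passed 2-fold at the brightest probe set, with a median of -0.10. By the probe-set SD, 2 were higher and 4 lower, beside 18.5% and 16.3% of all genes. *Slc2a4*, the insulin-regulated glucose transporter, read 8.66 with hAFS-CM + Dox and 9.36 with Dox, a log2 ratio of -0.70, and its other probe set gave -0.88. *Nppb*, which codes for B-type natriuretic peptide, had -0.39, whereas *Pdk4*, the kinase that spares glucose, had 0.56 and *Prodh*, proline dehydrogenase, 0.49. *Kcnip2* had -0.39 at its brightest probe set, and its 3 probe sets ran from -1.08 to 0.19. The genes of this list thus did not share a direction. The list was not split into genes that KLF15 raises and genes that it lowers. Its median therefore does not measure KLF15 action. Of 11 genes that glucocorticoids induce, as they do *Klf9* and *Klf15*, none passed 2-fold. By that SD, 5 were higher and 2 lower, beside 18.5% and 16.3% of all genes. *Tsc22d3*, or GILZ, had -0.74 (up to 0.45 among 4 probe sets), while *Mt2* had 0.55, *Errfi1* 0.49 and *Fkbp5* 0.46. Of 8 genes listed as TGF-β early genes linked to *Klf10*, none passed 2-fold at the brightest probe set. There, 4 were higher and none lower by that SD, beside 18.5% and 16.3% of all genes. The 4 were *Bhlhe40* with 0.95, *Ltbp2* with 0.81, *Tgif1* with 0.28 and *Skil* with 0.23. Two-sided values were met, as *Smad7* had -0.15 (-0.35 at its other probe set) and *Smad6* -0.20. The counts of this list do not measure TGF-β or KLF10 action. Of 8 growth control genes linked to *Klf4* and *Klf6*, none passed 2-fold. *Ccnd1*, a G1 cyclin, had -0.49, *Cdkn1b* -0.42, *Tgfb1* 0.46 and *Cdkn1a*, which codes for p21, 0.24 (-0.12 at its other probe set). This list, too, was not split into genes raised and genes lowered by these factors. Its values do not measure KLF4 or KLF6 action.

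**Figure D4:**
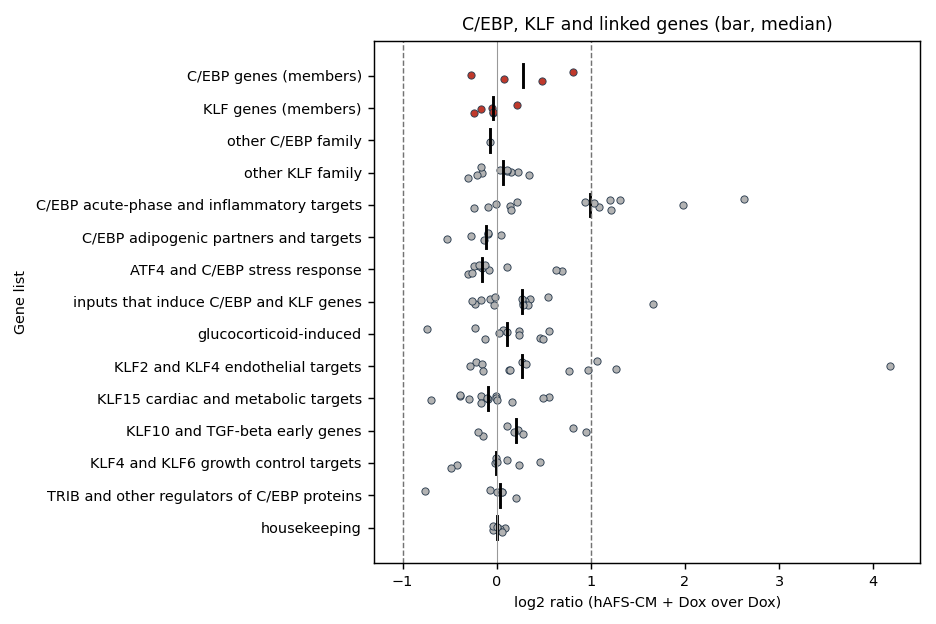
Log2 ratio (hAFS-CM + Dox over Dox) of each measured gene (points) of the C/EBP and KLF genes (red) and of the linked lists (grey), at the brightest probe set; black bars are medians and dashed lines mark 2-fold. The inflammatory targets of C/EBP have the highest median, 0.99, while the C/EBP genes have 0.27 and the KLF genes -0.04.

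The values of the factors stand beside those of the cell types that express them. Markers of cardiomyocytes were present, with a mean log2 value of 13.26 over 12 genes with hAFS-CM + Dox and 13.44 with Dox. All 12 were lower with hAFS-CM + Dox, 4 of them by more than the probe-set SD. Over all genes, 48.7% had a log2 ratio below 0 and 51.2% above. By that SD, 18.5% of all genes were higher and 16.3% lower, shares that stand beside the marker counts below. *Myl2*, a ventricular myosin light chain, read 14.99 with hAFS-CM + Dox and 15.05 with Dox. Of the 9 leukocyte markers, 5 were higher and 1 lower by that SD, with a mean log2 value of 7.59 with hAFS-CM + Dox and 7.39 with Dox. *Cd14* had 0.80 and *Fcgr3* 0.68, whereas *Lyz2* had -0.11 and *Itgam* -0.58. *Ptprc* (0.48) and *Csf1r* (0.33), also counted as higher, gave -0.09 and -0.14 at another probe set. Of 9 endothelial markers, 1 was higher and 1 lower by that SD, with mean log2 values of 7.19 with hAFS-CM + Dox and 7.16 with Dox. The higher one, *Vwf*, read 5.04 with hAFS-CM + Dox and 4.79 with Dox, both below the median of all values. At another probe set *Erg* had 0.85 and *Egfl7* -0.59, beside -0.04 and 0.08 at the brightest. Of 9 fibroblast markers, 3 were higher and 4 lower by that SD, with a median log2 ratio of -0.13 and mean log2 values of 9.86 with hAFS-CM + Dox and 9.90 with Dox. They included *Lum*, higher by 2-fold at 1.10, and *Tcf21*, lower by 2-fold at -1.03 but with 0.18 at its other probe set. Of 7 markers of smooth muscle and pericytes, 6 had a log2 ratio above 0 and 2 were higher and none lower by that SD (*Cspg4* 0.63 and *Cnn1* 0.32), with mean log2 values of 9.88 with hAFS-CM + Dox and 9.67 with Dox. Adipocyte markers (4 measured) averaged 3.86 with hAFS-CM + Dox and 3.99 with Dox, both low. No marker is at 0 on such arrays, and fewer cells of a type cannot be told apart from less RNA per cell. Of the brightest markers of other cell types, *Dcn* of fibroblasts had a log2 ratio of 0.41, *Emcn* of endothelium 0.05, *Acta2* of smooth muscle, the only one of its list below 0, -0.01 and *Retn* of adipocytes -0.21. Of 8 measured housekeeping genes, all lay within the probe-set SD at the brightest probe set, where *Hprt* had the furthest value, 0.09. At other probe sets *Ywhaz* reached -0.29 and *Tbp* -0.21, both past that SD.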

How the data were processed

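Gene expression in mNVCM was measured on Affymetrix mouse arrays, 1 per condition. The authors made log2 values per probe set by RMA with quantile normalization, and the deposited values entered without further transformation. Quantile normalization gives both arrays nearly the same distribution (medians 5.10 and 5.10, sorted columns at most 0.07 apart), so a shift common to all genes cannot be seen. RMA stands in the submitters' processing notes, and its version is not given in the sources used here. The log2 scale was read off the values, 2.37 to 15.05.

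Symbols came from the array's annotation, updated through Entrez IDs with RefSeq genes on GRCm38.p6 (34741 of 34945 probe sets with 1 gene matched; 64 control probe sets left out). Each gene took its brightest probe set. Left out were 932 probe sets annotated to several genes and 9211 to none. With 1 array per condition no test was made. Named genes were all 10 members, all measured relatives, up to 4 genes per linked list with the largest log2 ratio whose higher array reached 5.10, and the marker of highest mean of each cell type. Further genes of the lists (*Ccl2*, *Lcn2*, *Socs3*, *Saa3*, *Tnf*, *Atf4*, *Asns*, *Sele*, *Nos3*, *Thbd*, *Cd14*, *Fcgr3*, *Itgam*, *Lum*, *Tcf21*, *Cspg4*, *Cnn1*, *Creb1*, *Mef2a*, *Mef2c*, *Il6ra*, *Ptprc*, *Csf1r*, *Smad6*, *Smad7*, *Kcnip2*, *Vwf*, *Erg*, *Egfl7* and *Tbp*) were named after their values were seen. Members and lists were chosen with earlier results of these data known. Likeness of pattern between genes was not measured, as 2 arrays give 1 difference. Counting was tested on simulated data. Alternatives were thresholds of 1.5-fold and 3-fold, other rules for a gene's value, filters on signal (5.10, and 3.80 at the 25th percentile), centring and lowess (span 0.3). Tools were pandas 2.3.3, numpy 2.4.6, matplotlib 3.10.9 and statsmodels 0.14.6 under Python 3.11.15.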

Additional observations from a re-analysis of the deposited data

How the results depend on the processing

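The count of members past 2-fold was 0, and with a 1.5-fold threshold it was 1, *Cebpd*. It was 0 under the other 8 alternatives, of which 3 (the 3-fold threshold and both filters on signal) could give nothing else. The median log2 ratio of the 10 genes, -0.04, ranged from -0.10 to -0.04 over 7 alternatives. For single members, 40 of 70 values under the alternatives were the value reported itself, as the setting left the probe set in place. Of 12 values under another rule for a gene's value, for the 6 members with several probe sets, 3 moved by more than the probe-set SD (0.20) and none had the other sign. They were *Cebpd*, 0.35 with the mean of its probe sets, and, where the most divergent probe set was taken, *Cebpb* (0.29) and *Klf6* (-0.41). Of 411 values for 59 other named genes, 20 moved by more than that SD and 10 had the other sign, all 10 in genes under 2-fold. Averaged over their probe sets, *Osmr* (0.86) and *Angpt2* (0.51) no longer passed 2-fold, *Selp* had 2.65, *Vcam1* 0.44 and *Klf12* 0.02, and with the most divergent probe set *Fabp4* passed it (-1.21). No paired analysis was possible because each condition had 1 array, and no array could be left out. Probe sets below the 25th percentile of all values are not shown to be above background.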

Other observations

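The SP factors, which carry zinc fingers like those of the KLF family, and relatives of the C/EBP zippers were read after the other values were seen. Of 7 measured SP genes, *Sp4* was furthest from 0, with log2 values of 5.71 with hAFS-CM + Dox and 6.19 with Dox, a log2 ratio of -0.47, and -0.15 at its other probe set. *Sp1*, the widely expressed founder of the family, had 0.10 and *Sp3* -0.03. *Hlf*, a zipper factor of the PAR group whose protein binds sites like those of C/EBP, read 5.25 with hAFS-CM + Dox and 6.42 with Dox, 2.25-fold lower with hAFS-CM + Dox, but -0.09 at its other probe set. *Nfil3*, a repressor at such sites, had 0.22 (8.28 with hAFS-CM + Dox and 8.06 with Dox). No replicate check exists for these values.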
